A study of Mus musculus with 14 samples.

Results

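Loss of the DNA methyltransferase Dnmt1 was examined in mouse bone marrow cells sorted as long-term hematopoietic stem cells (LT-HSCs). The comparison takes the 4 arrays whose titles name this population, of 14 arrays in the series, and sets 2 knockout arrays against 2 control arrays. It covers 8608 genes with measurable signal, of 12393 genes with a probe set. The other arrays hold multipotent progenitors (MPPs, 2 arrays per genotype) and myeloid progenitors (3 per genotype).

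All mice were on a C57BL/6 background, were aged 8 to 12 weeks and carried floxed Dnmt1 alleles (Dnmt1fl/fl). Knockout mice carried the Mx-Cre transgene and control littermates did not. Mx-Cre is driven by an interferon-inducible promoter, and poly(I)poly(C), a synthetic double-stranded RNA, induces it. Both genotypes received poly(I)poly(C) 7 times, every other day at 25 ug/kg, so the controls share any response to the agent itself. Marrow was collected 4 days after the last dose, and each array holds RNA from a pool of 4 to 6 mice of 1 genotype. The sorted cells lacked mature lineage markers and CD34 and carried c-Kit and Sca-1. Their RNA was amplified before it was hybridised. Knockout and control pools with the same replicate number came from littermates and are called pair 1 and pair 2.

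DNMT1 copies the methylation of CG dinucleotides from the old DNA strand to the new one each time a cell replicates its genome. When it is missing, methylation is diluted with each division, and genes that promoter methylation keeps silent can be transcribed. A known class of such genes is used in the germline and early embryo, among them Tex19.1, Dazl and the Rhox cluster. Long-term stem cells are the mostly quiescent cells that sustain blood formation, and they give rise to MPPs and then to lineage-restricted progenitors.

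The 4 arrays had median intensities of 42.2 to 49.1 units, and replicates correlated with r = 0.907 in control and r = 0.900 in knockout cells across genes. The 3'/5' signal ratio of the Gapdh control probe sets, which rises when RNA is degraded, was 5.44 and 5.15 on the control and knockout array of pair 1 and 3.07 and 2.46 in pair 2. The ratio thus differed between pairs more than between genotypes, and it lay between 2.25 and 5.27 on the other 10 arrays. The same ratio for Actb went the other way, at 0.808 and 0.754 in pair 1 and 0.968 and 1.09 in pair 2. The part of either ratio in any result was not tested. No stated depth exists for arrays, and their number limits the precision.

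Marker genes matched the label in part. Cd34, which the sort selects against, stood at 7.55 and 96.8 units on the control arrays and 20.5 and 68.9 on the knockout arrays, below the 748 to 1021 units of the MPP controls. Slamf1, a surface marker of long-term stem cells, stood at 13 and 119 units in control and 75.8 and 124 in knockout cells, against 22.3 to 36.5 in MPP controls, so 3 of the 4 arrays were above the MPP range. Hlf, a stem cell transcription factor, stood at 128 and 406 units in control and 210 and 326 in knockout cells, all below the 448 to 1155 units of MPP controls. Procr, the endothelial protein C receptor of stem cells, stood at 59.3 and 232 units in control and 429 and 182 in knockout cells, against 251 to 749. The summed signal of the 5 stem cell markers with a probe set, of 8, was 223 and 823 units in control and 752 and 677 in knockout cells, against 767 to 2021 in MPP controls.

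B cell precursor genes gave the strongest contrary signal. Vpreb1, a part of the surrogate light chain of pre-B cells, stood at 4729 and 3010 units in control and 4185 and 3205 in knockout cells, against 73.9 to 342 in MPP controls. Its partner Igll1 stood at 3275 and 1978 units in control and 2246 and 1570 in knockout cells, against 16.8 to 61.4. Pax5, the factor that commits cells to the B lineage, stood at 817 and 346 units in control and 627 and 224 in knockout cells, against 6.26 to 29.7. The summed signal of 6 B cell markers was 12217 and 6637 units on the control arrays and 9415 and 5922 on the knockout arrays, against 263 to 597 in MPP controls. All 4 arrays of both genotypes therefore carried B lymphoid RNA well above the MPP arrays. They are called the CD34- arrays here, after the sort, and stand in the plots under their label LT-HSC.

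**Figure D1:**
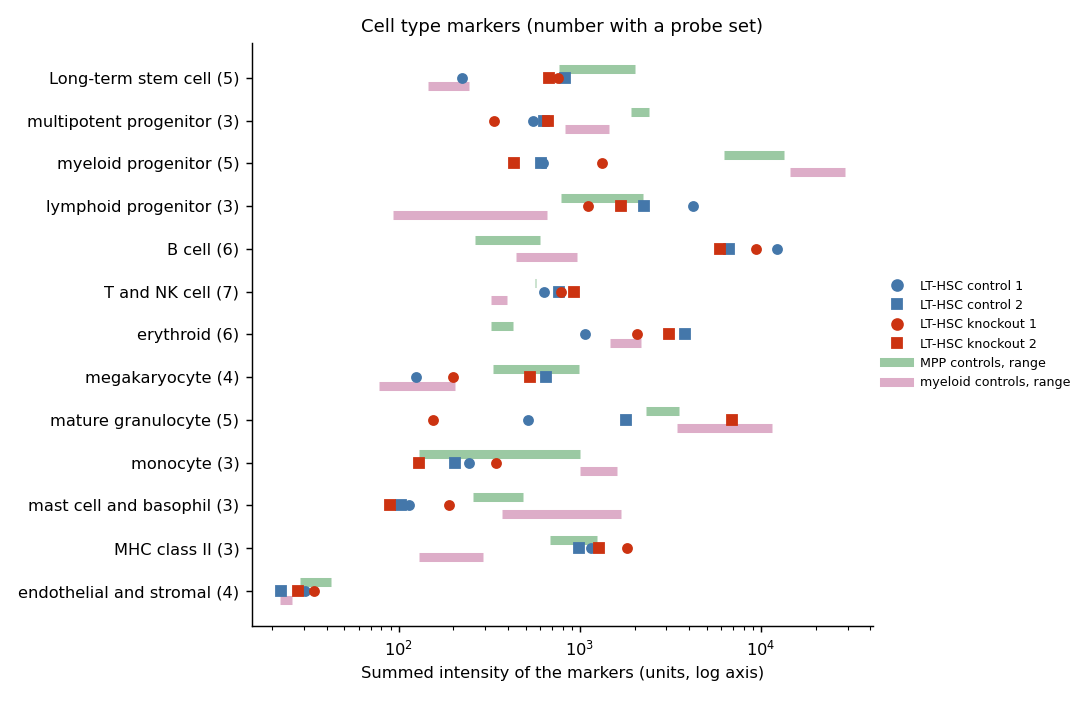
Summed intensity (units, log axis) of marker genes of 13 cell types on the 4 CD34- arrays labelled LT-HSC, with the range of the MPP and myeloid progenitor control arrays as bars. B cell markers lie at 5922 to 12217 units on the 4 arrays and at 263 to 597 in MPP controls, while stem cell markers lie at 223 to 823 units against 767 to 2021.

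Erythroid and granulocyte markers differed between arrays of the same genotype. Erythroid markers (6 genes) summed to 1071 and 3782 units in control and 2062 and 3095 in knockout cells. Mature granulocyte markers (5 genes) summed to 517 and 1788 units in control and 154 and 6944 in knockout cells, the highest and the lowest value both being knockout arrays. Endothelial and stromal markers (4 genes: Cdh5, Kdr, Col1a1 and Cxcl12) were below the 40th percentile of every CD34- array. In bulk samples fewer cells of a type and less RNA per cell cannot be told apart.

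Dnmt1 itself (Entrez Gene 13433) checks the labels. Its probe set stood at 2219 and 1818 units on the control arrays and at 1170 and 1305 units on the knockout arrays, so the genotypes did not overlap. Both knockout arrays lay below both control arrays in 12.1% of all genes. The difference (knockout minus control, in log2 of intensity + 16, as throughout) was -0.58 ± 0.26 (SE, n = 2 per genotype). It did not pass the test across all genes (limma, unadjusted p = 0.0434, adjusted p = 0.740). A second probe set, of the _x_ kind that can bind related transcripts, stood at 1843 and 1337 units in control and 649 and 870 in knockout cells, a difference of -0.98. Pair 1 gave -0.77 and -1.43 on these probe sets and pair 2 gave -0.39 and -0.54. Which exons lie between the loxP sites is not in the labels, and these probe sets may fall outside them.

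Of 20 genes listed for the DNA methylation machinery, 13 were measured, 4 above 0 and 9 below (49.6% and 50.4% of all genes), with a median difference of -0.06 beside -0.005 over all genes. None passed the adjusted threshold by limma, and Dnmt1 was the 1 member below an unadjusted p of 0.05 (3.15% of all genes were lower at that limit). Dnmt3b, which sets new methylation, stood at 305 and 300 units in control and 359 and 537 in knockout cells, a difference of 0.56 that did not pass. Dnmt3a, its partner enzyme, was at -0.06 (-0.18 to 0.57 on 4 other probe sets), Uhrf1, which brings DNMT1 to replicated DNA, at 0.04, and Tet1, which oxidises methylcytosine, at -0.03.

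In knockout cells 4 genes rose and 2 fell. Tex19.1, Tex19.2 and Rhox5, all germline or early embryo genes, and Rhoc, a GTPase that regulates the actin cytoskeleton, rose. Lef1, which binds DNA with beta-catenin in Wnt signalling and acts in early lymphocytes, and Ankrd33b, an ankyrin repeat gene, fell. The 6 genes are 0.0697% of the 8608 tested (limma, Benjamini-Hochberg adjusted p below 0.05; 0.0465% higher and 0.0232% lower). At an unadjusted p below 0.05 stood 299 genes higher (3.47%) and 271 lower (3.15%). Both knockout arrays lay above both control arrays for 1113 genes (12.9%) and below for 1045 (12.1%).

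Tex19.1 (Entrez Gene 73679), which acts in germ cells and pluripotent cells, stood at 8.04 and 3.08 units on the control arrays and at 1023 and 985 on the knockout arrays. It rose by 5.69 ± 0.61 (adjusted p = 0.00292), with 5.69 in pair 1 and 5.68 in pair 2. Its neighbour Tex19.2 (Entrez Gene 70956) stood at 2.88 and 4.34 units in control and 566 and 428 in knockout cells and rose by 4.74 ± 0.62 (adjusted p = 0.00909). Rhox5, a homeobox gene of the X chromosome (Entrez Gene 18617), stood at 1.48 and 1.75 units in control and 214 and 228 in knockout cells and rose by 3.78 ± 0.54 (adjusted p = 0.0178). Control signal of the 3 genes was near the bottom of the scale on both arrays, and both knockout arrays were above 200 units. The pseudocount therefore sets the size of these rises, and for Tex19.1 it was 7.49 when 1 unit was added and 4.05 when 64 were.

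Because DNMT1 acts on CG dinucleotides, the 250 bases before the annotated start of these genes are shown, with every CG in capitals. They are RefSeq sequences of assembly GRCm38.p6, written 5′ to 3′ on the gene's strand, and methylation was not measured on these arrays. Lef1, which fell, is shown for comparison with the first of its 4 annotated windows. The windows are chr11:121145893-121146142 (plus strand) for Tex19.1, chr11:121118678-121118927 (minus strand) for Tex19.2, chrX:37754358-37754607 (plus strand) for Rhox5 and chr3:131110047-131110296 (plus strand) for Lef1.
Tex19.1: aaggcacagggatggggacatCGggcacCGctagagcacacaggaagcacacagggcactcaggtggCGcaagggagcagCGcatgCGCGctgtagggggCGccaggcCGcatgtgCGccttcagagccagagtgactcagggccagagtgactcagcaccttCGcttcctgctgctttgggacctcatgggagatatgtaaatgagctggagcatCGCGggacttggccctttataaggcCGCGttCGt
Tex19.2: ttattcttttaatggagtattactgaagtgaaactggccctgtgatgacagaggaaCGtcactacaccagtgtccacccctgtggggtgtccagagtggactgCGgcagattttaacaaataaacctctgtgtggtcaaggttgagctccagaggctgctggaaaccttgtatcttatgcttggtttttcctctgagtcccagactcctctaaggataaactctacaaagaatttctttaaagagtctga
Rhox5: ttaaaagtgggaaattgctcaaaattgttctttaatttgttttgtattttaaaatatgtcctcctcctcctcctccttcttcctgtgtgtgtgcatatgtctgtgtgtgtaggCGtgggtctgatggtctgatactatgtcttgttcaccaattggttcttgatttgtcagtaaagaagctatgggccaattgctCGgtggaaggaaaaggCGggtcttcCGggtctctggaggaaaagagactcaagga
Lef1: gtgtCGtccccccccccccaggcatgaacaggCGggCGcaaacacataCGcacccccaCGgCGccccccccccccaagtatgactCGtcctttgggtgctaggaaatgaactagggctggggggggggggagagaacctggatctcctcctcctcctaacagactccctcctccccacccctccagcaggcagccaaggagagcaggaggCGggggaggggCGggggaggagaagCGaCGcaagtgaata
The Tex19.1 window holds 15 CG dinucleotides, and 27.3% of all 32851 mouse windows of this length hold at least that many. The Tex19.2 window holds 2 (81.2% of windows hold at least that many), the Rhox5 window 4 (62.2%) and the Lef1 window 11 (35.6%). The 3 germline genes shown lay below 17, the median over the genes tested that had a window. In that median and below, a gene counts by its window with the most CG dinucleotides. Over all windows the median was 6. Rhoc, which also rose, held 21 CG dinucleotides, and Ankrd33b, which fell, held 19.

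Over the 16 genes that passed or came next in the higher direction, 13 had a window, with a median of 8 CG dinucleotides and 7 of 13 windows under 10. Over all genes tested, 7037 of 8608 had a window, with a median of 17 and 22.1% under 10. Among the 299 genes higher at an unadjusted p below 0.05 the median was 16 and 25.5% were under 10, and among the 271 lower it was 17 and 19.7%. For the 14 genes at the head of the lower direction the check is void, since 78.6% had a window and at least 80% was required (81.2% had one in the higher direction). The 11 windows there had a median of 15 and 1 was under 10.

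**Figure D2:**
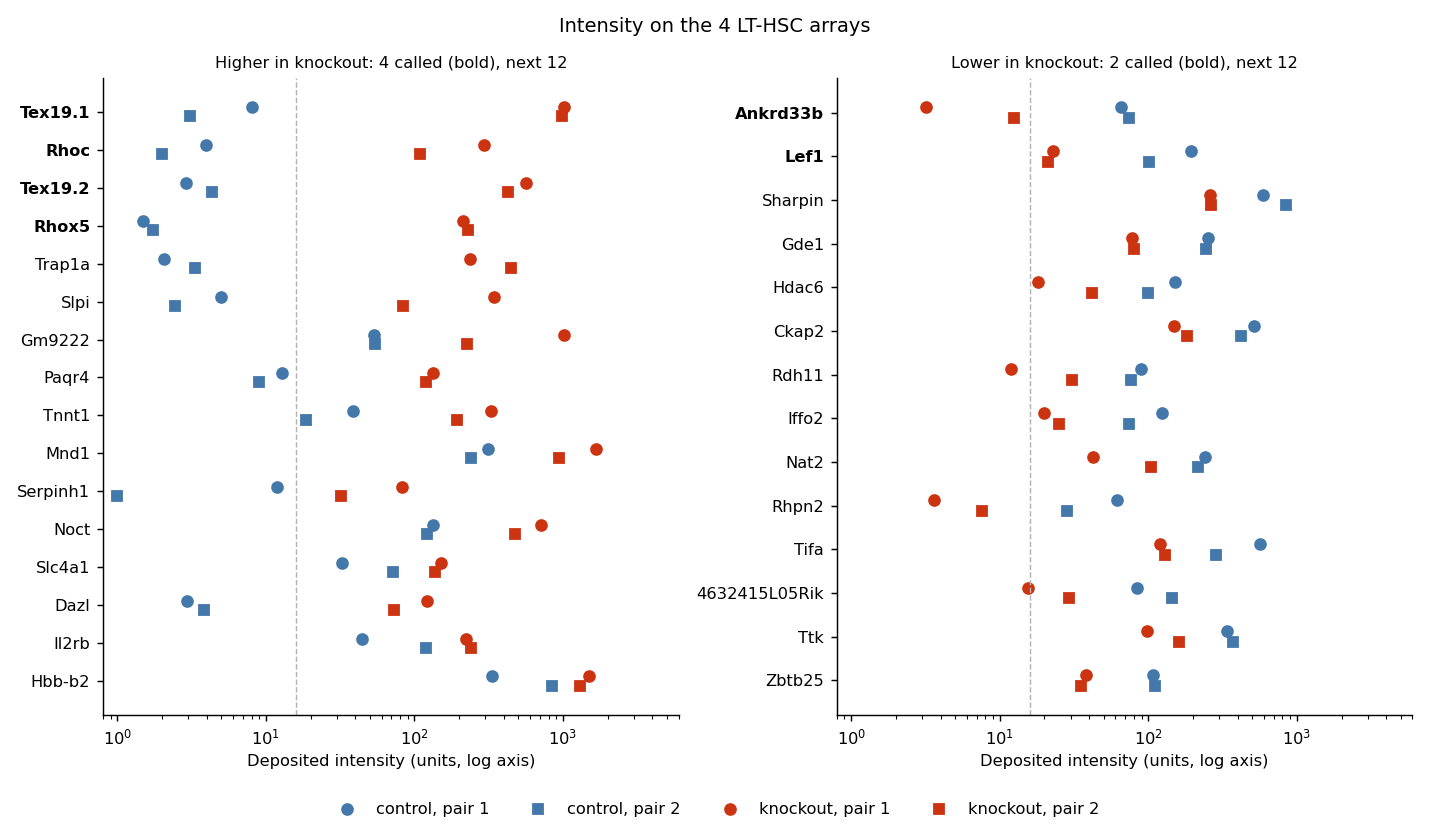
Deposited intensity (units, log axis) on the 4 CD34- arrays for the 6 genes past the threshold (bold) and the next 12 genes in each direction. Circles are pair 1 and squares pair 2, blue is control and red knockout, and the dashed line marks 16 units, the pseudocount; Tex19.1 moves from 3.08 to 8.04 units in control to 985 to 1023 in knockout cells.

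Rhoc (Entrez Gene 11853) stood at 3.98 and 2.00 units in control and 293 and 109 in knockout cells and rose by 3.41 ± 0.41 (adjusted p = 0.00584). Its probe set is of the _s_ kind, which may bind transcripts of other genes. The other Rhoc probe set stood at 2.99 and 6.23 units in control and 2.04 and 5.09 in knockout cells, a difference of -0.10. The 2 probe sets of this gene disagree, and the rise belongs to the first of them. Of the CD34- arrays, only the knockout arrays brought that probe set past the signal filter.

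Lef1 (Entrez Gene 16842) stood at 193 and 101 units in control and 22.7 and 21.0 in knockout cells and fell by 2.06 on the log2 scale (SE 0.32, adjusted p = 0.0319). Ankrd33b (Entrez Gene 67434) stood at 65.9 and 74.1 units in control and 3.17 and 12.5 in knockout cells and fell by 1.90 (SE 0.30, adjusted p = 0.0319). In both genes the knockout arrays lay below both control arrays, as in 12.1% of all genes, and both were chosen by the same contrast. Neither passed with a pseudocount of 1 (adjusted p = 0.334 and 0.290).

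Genes differed in whether they kept their call with 1 array left out, and an adjusted p also moves with the p-values of all other genes. The differences of Tex19.2 (4.44 to 5.04) and Rhox5 (3.74 to 3.83) changed little when any 1 of the 4 arrays was left out. Lef1 then lay at -2.54 to -1.57 and Ankrd33b at -2.18 to -1.63. Tex19.1 and Rhoc passed with any 1 of the 4 arrays left out (highest adjusted p = 0.0379 for both). Tex19.2, Rhox5, Lef1 and Ankrd33b lost their calls when control array 1 was left out (adjusted p = 0.0881, 0.151, 0.296 and 0.222) or knockout array 1 (0.165, 0.176, 0.176 and 0.321). Ankrd33b did so without control array 2 as well (0.0515). The count of 6 became 5 and 35 without control array 1 or 2, and 2 and 77 without knockout array 1 or 2. Without both arrays of pair 1 no gene passed by limma, with 183 higher and 186 lower at an unadjusted p below 0.05, and without both arrays of pair 2 the count was 120.

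The 3 germline genes that passed moved the same way in the other sorted populations. Tex19.1 was at 4.73 in MPPs and 4.66 in myeloid progenitors, Tex19.2 at 3.80 and 3.65, and Rhox5 at 4.17 and 2.67. Rhoc, Lef1 and Ankrd33b did not share this pattern. Rhoc was at 0.20 in MPPs and -0.08 in myeloid progenitors, Lef1 at -0.01 and -0.08, and Ankrd33b at 0.20 and 0.10. Rhoc, Lef1 and Ankrd33b exceeded the signal filter on at least 2 CD34- arrays but on fewer than 4 arrays of the whole series. Most MPP and myeloid progenitor arrays thus lay below the filter for these genes. For Lef1 and Ankrd33b, values near 0 there cannot show that a fall was absent, since little signal was left to lose. Rhoc passed the filter through the knockout arrays on which it was high.

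The difference itself was tested as an interaction, the CD34- effect minus the mean effect of MPPs and myeloid progenitors. By limma 0 of 8608 genes passed (0.00%), with 165 higher (1.92%) and 160 lower (1.86%) at an unadjusted p below 0.05. Rhoc came closest, at 3.34 (adjusted p = 0.0969), followed by Ankrd33b at -2.06 (adjusted p = 0.226) and Lef1 at -2.01 (adjusted p = 0.433). For Ankrd33b and Lef1 the interaction cannot tell a fall limited to CD34- cells from low signal in the other populations. Slc4a5, a bicarbonate transporter, was at -1.50 and Itgb3, the beta-3 integrin of platelets and progenitors, at 1.50. Neither passed (adjusted p = 0.856 by limma for both). Slc4a5 was at -1.15 in CD34- cells, 0.34 in MPPs and 0.35 in myeloid progenitors. It too exceeded the filter on fewer than 4 arrays, so the same limit holds. The Itgb3 value joined 1.06 in CD34- cells with -0.69 in MPPs and -0.19 in myeloid progenitors. Itgb3 stood at 13.4 and 10.3 units in control and 38.4 and 44.8 in knockout cells on the CD34- arrays. Without knockout array 2, 5 genes passed, Rhoc among them (adjusted p = 0.00265). Without both arrays of pair 2, 30 genes passed, with Rhoc at an adjusted p of 0.0109 and Lef1 at 0.0350.

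**Figure D3:**
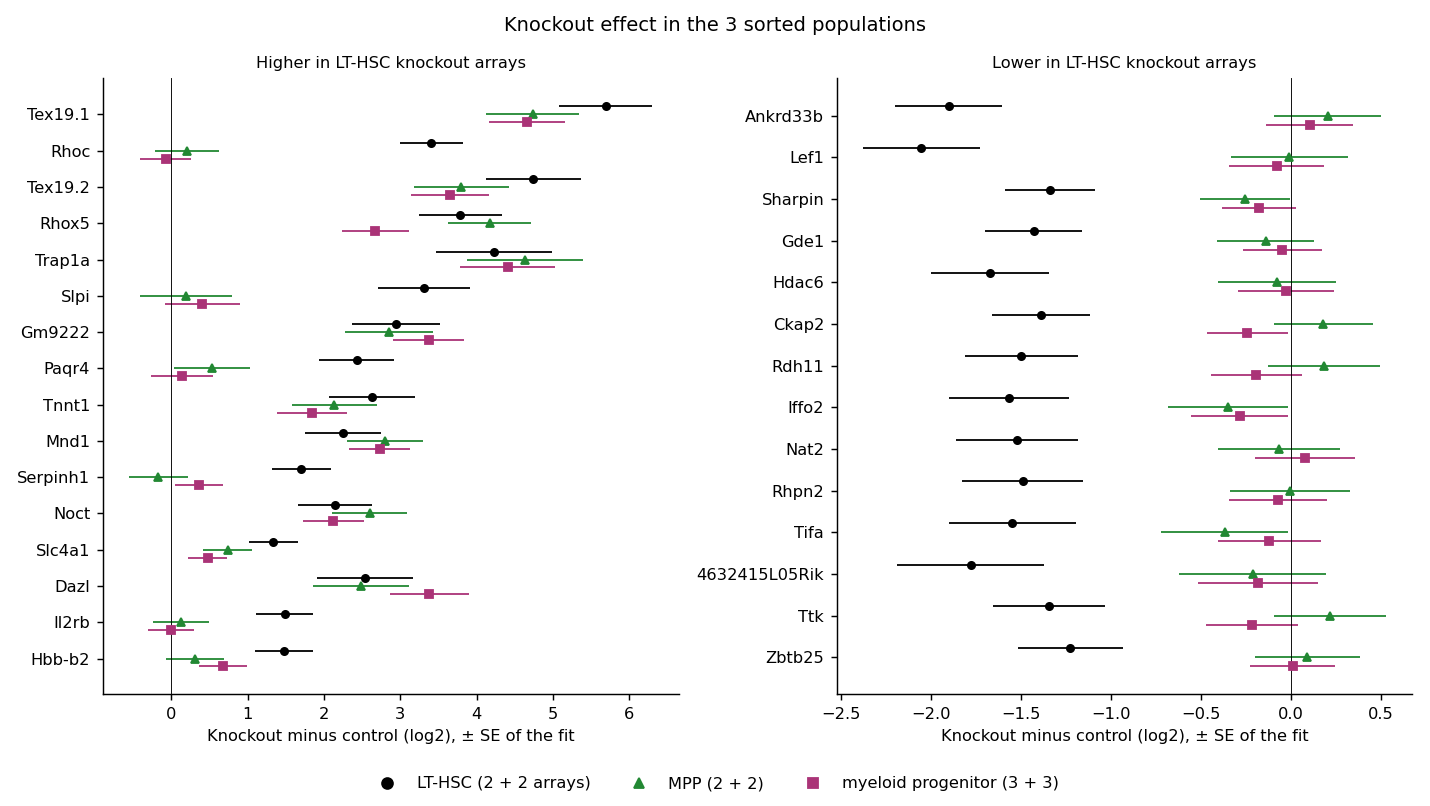
Knockout minus control (log2, with the SE of the limma fit as bars) in CD34- cells labelled LT-HSC, MPPs and myeloid progenitors for the 6 genes past the threshold and the next 12 in each direction. Tex19.1, Tex19.2, Rhox5, Trap1a, Gm9222, Tnnt1, Mnd1, Noct and Dazl lie at 1.85 or more in all 3 populations. Lef1 and Ankrd33b lie between -0.08 and 0.20 in MPPs and myeloid progenitors, where most arrays were below the signal filter for both genes.

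Several genes that came next in the higher direction also lay at 1.85 or more in MPPs and myeloid progenitors. Trap1a, an X-linked gene of testis and placenta, stood at 2.05 and 3.31 units in control and 238 and 444 in knockout cells, a difference of 4.22 ± 0.76 that missed the threshold (adjusted p = 0.0998). Mnd1, which acts in meiotic recombination, was already measurable in control cells, at 313 and 239 units, and stood at 1676 and 940 in knockout cells (2.25 ± 0.49, adjusted p = 0.241). Dazl, an RNA-binding protein of germ cells, stood at 2.96 and 3.81 units in control and 122 and 73.0 in knockout cells (2.54 ± 0.63, adjusted p = 0.345), and its other probe set gave 2.69. In these 3 genes the knockout arrays lay above both control arrays, as in 12.9% of all genes. Tnnt1, a slow muscle troponin, was at 2.63, the circadian gene Noct at 2.15, and Gm9222, measured by an _x_ probe set, at 2.94.

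Other genes near the head of the list had smaller values in the other populations, and the interaction did not pass for these (adjusted p = 0.856 for Slpi and 1.00 for Paqr4 and Serpinh1). Slpi, a leukocyte protease inhibitor, stood at 4.99 and 2.46 units in control and 345 and 84.1 in knockout cells (3.31 ± 0.61, adjusted p = 0.104), against 0.19 in MPPs and 0.41 in myeloid progenitors. Paqr4, a membrane receptor family gene, stood at 12.9 and 9.05 units in control and 133 and 120 in knockout cells (2.43 ± 0.50, adjusted p = 0.166), against 0.54 and 0.14. Serpinh1, a collagen chaperone, was at 1.70, against -0.17 and 0.36, and its other probe set gave 0.87. With the littermate pairs as blocks, 13 genes rose (0.151%) and 7 fell (0.0813%), the 6 above included. In that fit the adjusted p was 0.0373 for Trap1a, 0.0158 for Slpi, 0.00388 for Paqr4, 0.0177 for Tnnt1, 0.0346 for Mnd1, 0.0346 for Gm9222 and 0.0373 for Serpinh1.

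The germline and early embryo list held 60 genes, of which 48 had a probe set and 25 were measured. Of the 25, 7 exceeded the signal filter on control arrays, so the others needed knockout arrays to be measured, and a median over the 25 supports nothing. Over all 48 with a probe set, without the filter, 33 were above 0 and 15 below. Their median was 0.17, beside 0.003 over all 12393 genes without the filter. Of the 8608 genes that passed the filter, 49.6% were above 0. Besides the genes above, Rpl39l, a ribosomal protein gene of testis, stood at 6.61 and 9.56 units in control and 252 and 139 in knockout cells, a difference of 3.11. Dpep3, a testis dipeptidase, was at 1.41, Piwil2, a partner of piRNAs, at 1.23 and Dppa4, a gene of pluripotent cells, at 0.95. Each was higher in both pairs, as were 26.0% of all genes, and short of the threshold. These genes and Rpl39l were chosen after their values were seen, so they lend no support to a rise of the list. Sycp3, a core protein of meiotic chromosomes, was at -0.23, Ddx4, a germ cell helicase, at 0.12, and Syce2, another meiotic gene with strong control signal (1287 and 2101 units), at 0.10.

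Imprinted genes, which carry methylation on 1 parental copy, were mixed. Of 21 measured, 13 were above 0 and 8 below, with a median of 0.21, and 0 passed by limma while 1 was higher at an unadjusted p below 0.05 (4.76%, near the 3.47% of all genes). That gene, Nnat, was high on 1 array: it stood at 7.50 and 7.90 units in control and 198 and 10.2 in knockout cells. Over all 35 with a probe set the median was -0.002.

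Genes of lymphoid commitment, to which Lef1 belongs, were mostly below 0. Of 22 lymphoid priming genes measured, 6 were above 0 and 16 below, with a median of -0.53 beside -0.005 over all genes. Lef1 was the 1 member past the threshold, and 5 were lower at an unadjusted p below 0.05 (22.7%, beside 3.15% of all genes) and 2 higher (9.09%, beside 3.47%). In 13 of 22 the sign was negative in both pairs, beside 26.3% of all genes, and the pair medians were -0.61 and -0.28. Rag1 and Rag2, the recombinase of antigen receptor genes, stood at 494 and 291 and at 606 and 427 units in control, and at 96.0 and 151 and at 157 and 199 units in knockout cells. Their differences were -1.50 and -1.42, and neither passed. Il7r, the interleukin-7 receptor, stood at 1209 and 406 units in control and 145 and 324 in knockout cells (-1.62 ± 0.69), with most of the difference in pair 1 (-2.96 against -0.29). Dntt, which adds nucleotides to antigen receptor junctions, was at -0.87. Members on the other side were Ly6d, a surface marker of B cell-biased progenitors, at 1.16, and Cd7, a T and NK lineage antigen, at 0.90.

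B cell markers were also mostly below 0. Of 28 measured, 7 were above 0 and 21 below, with a median of -0.35, 0 past the threshold by limma, and 3 higher and 3 lower at an unadjusted p below 0.05 (10.7% each way, beside 3.47% and 3.15% of all genes). In 18 of 28 the sign was negative in both pairs, beside 26.3% of all genes, and the pair medians were -0.40 and -0.21. Bach2, a transcriptional repressor of B cells, stood at 67.8 and 76.5 units in control and 35.5 and 33.5 in knockout cells (-0.79). Cr2, a complement receptor of mature B cells, went the other way, from 11.2 and 16.7 to 57.7 and 35.9 units (1.08). The lymphoid progenitor markers Il7r, Dntt and Rag1 summed to 4183 and 2260 units in control and 1103 and 1674 in knockout cells, without overlap. Of all single genes, 12.1% had both knockout arrays below both control arrays. The largest part of this sum was Dntt, at 2480 and 1563 units in control and 862 and 1199 in knockout cells. The summed B cell markers given above overlapped between genotypes, and a difference between the 2 sums was not tested. The median of the B cell list was 0.10 without control array 1, and that of the lymphoid priming list was -0.18. The part of B lineage cells in the fall of Lef1 was not tested.

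T and NK cell markers were mostly above 0 in both pairs. Of 50 genes listed 42 had a probe set and 32 were measured, 29 above 0 and 3 below, with a median of 0.60 and pair medians of 0.55 and 0.63. By limma 0 passed the threshold and 9 were higher and 0 lower at an unadjusted p below 0.05 (28.1%, beside 3.47% of all genes). In 23 of 32 the sign was positive in both pairs, beside 26.0% of all genes. The filter touched this list less than the germline list: 23 members passed it on control arrays, 20 of them above 0 with a median of 0.58, and over all 42 without the filter 35 were above 0 with a median of 0.47. The median was 0.89 with a pseudocount of 1 and 0.31 with 64, and 0.48 to 0.75 with any 1 array left out. The list median was -0.02 in MPPs and 0.00 in myeloid progenitors, a difference between populations that was not tested.

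Il2rb, a chain shared by the receptors of IL-2 and IL-15, stood at 44.6 and 120 units in control and 221 and 240 in knockout cells (1.49 ± 0.37, adjusted p = 0.349), and its other probe set gave 0.34. Thy1, a surface antigen of T cells and some early progenitors, stood at 151 and 68.0 units in control and 427 and 235 in knockout cells (1.54). Eomes, a T-box factor of NK cells, stood at 7.27 and 16 units in control and 42.2 and 37.6 in knockout cells (1.06), and its other probe set gave -0.05. In these 3 genes the knockout arrays lay above both control arrays, as in 12.9% of all genes. The related factor Tbx21 stood at 223 and 13.1 units in control and 561 and 306 in knockout cells (2.38), a gene whose control arrays lay far apart. Lat, an adaptor of T cell receptor signalling, stood at 91.2 and 224 units in control and 344 and 560 in knockout cells (1.55). Gzmb, a granzyme of cytotoxic cells, stood at 3.07 and 54.2 units in control and 40.5 and 219 in knockout cells, a difference of 1.72 with 1.67 and 1.77 in the pairs; it passed with pairs as blocks (adjusted p = 0.0373).

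Among T cell genes of the marker list, Cd3e and Cd3g were above the MPP controls on all 4 arrays, and Cd247 was not. Cd3e and Cd3g, chains of the T cell receptor complex, stood at 39.8 and 27.5 and at 28.3 and 18.2 units in control, and at 64.5 and 47.2 and at 55.1 and 35.4 units in knockout cells, against 14.9 to 17.4 and 3.35 to 8.48 in MPP controls. Ncr1, an NK cell receptor, stood at 3.56 and 11.6 units in control and 12.8 and 44.2 in knockout cells, against 1.74 to 10.1 in MPP controls. Members below 0 were Prf1, the perforin of cytotoxic cells, at -0.36, Cd27, a receptor of lymphocytes and progenitors, at -0.32, and Cd247, the zeta chain of the receptor complex, at -0.31, although its other probe sets gave 0.30, 0.45 and 1.33. Cd247 stood at 464 and 542 units in control and 351 and 433 in knockout cells, against 474 to 529 in MPP controls. The summed signal of 7 T and NK cell markers was 629 and 770 units in control and 787 and 931 in knockout cells, against 565 to 572 in MPP controls. The part of T or NK cells among the sorted cells was not tested.

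Mitosis genes were mostly below 0. Of 57 measured, 6 were above 0 and 51 below, with a median of -0.27 beside -0.005 over all genes. By limma 0 passed the threshold, and 8 were lower (14%, beside 3.15% of all genes) and 0 higher at an unadjusted p below 0.05. In 36 of 57 the sign was negative in both pairs, beside 26.3% of all genes, and the pair medians were -0.41 and -0.22. Ckap2, a spindle protein, stood at 517 and 424 units in control and 148 and 183 in knockout cells (-1.39 ± 0.27, adjusted p = 0.133). Ttk, the kinase of the spindle checkpoint, stood at 340 and 370 units in control and 98.6 and 160 in knockout cells (-1.35 ± 0.31, adjusted p = 0.268). Ccna2, a cyclin of S phase and mitosis, stood at 1627 and 1424 units in control and 877 and 992 in knockout cells (-0.62), and its other probe set gave -0.06. Ckap5, a microtubule regulator, was at -0.83. In the first 3 genes, which were named for their small p, the genotypes did not overlap on these probe sets. Both knockout arrays lay below both control arrays in 12.1% of all genes. The list median was -0.02 without control array 1 and -0.52 without control array 2, so its size depended on the control arrays. It was 0.17 in MPPs and -0.04 in myeloid progenitors.

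Of 48 DNA replication genes measured, 22 were above 0 and 26 below, with a median of -0.03. Cell cycle inhibitors had a median of -0.11 over 20 genes and histone genes -0.22 over 10. The centromeric histone gene Cenpa stood at 453 and 475 units in control and 243 and 305 in knockout cells (-0.69).

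**Figure D4:**
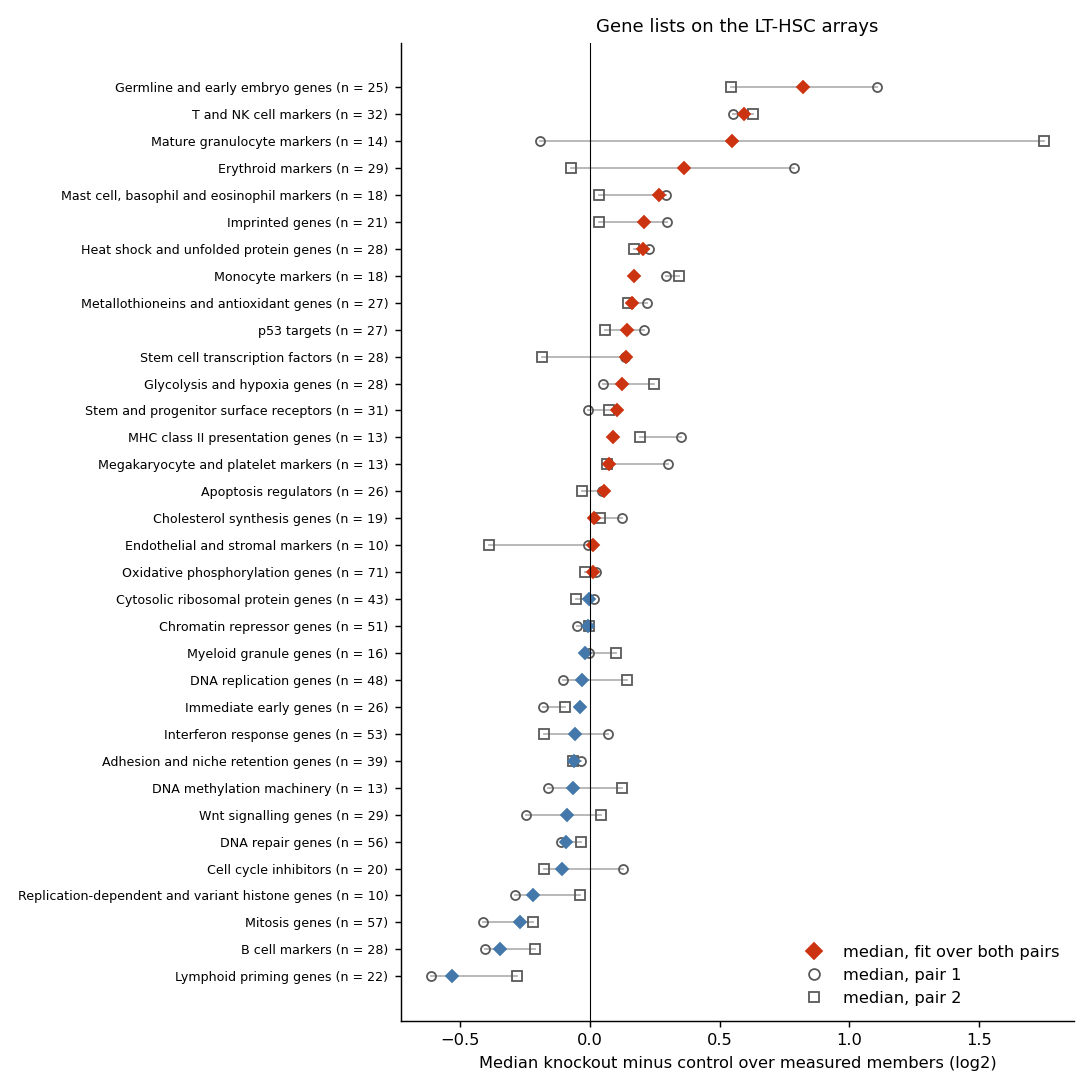
Median knockout minus control (log2) over the measured members of 34 gene lists on the CD34- arrays, from the fit over both pairs (diamonds) and from pair 1 (circles) and pair 2 (squares) alone. T and NK cell markers lie at 0.55 and 0.63 in the pairs and mitosis genes at -0.41 and -0.22, whereas mature granulocyte markers lie at -0.19 and 1.75; the germline list was filtered on the same arrays and its median supports nothing.

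Of the 34 list medians, 21 changed sign with 1 of the 4 arrays left out, and some lists took opposite signs in the littermate pairs. Mature granulocyte markers had a median of -0.19 in pair 1 and 1.75 in pair 2. S100a9, a granulocyte calcium-binding protein, stood at 172 and 953 units in control and 7.62 and 3131 in knockout cells, and Ngp, a granule protein, at 34.4 and 55.9 and at 11.2 and 659. Slpi and Pglyrp1, an antibacterial granule protein, were the members of that list higher in both pairs with the smallest p. Erythroid markers had a median of 0.79 in pair 1 and -0.07 in pair 2. Gata1, the erythroid master regulator, stood at 139 and 587 units in control and 605 and 537 in knockout cells, so that control array 1 was the array apart. Hbb-b2, a beta globin with near-identical copies, stood at 334 and 848 units in control and 1500 and 1294 in knockout cells (1.48), and its other, dim probe set gave -0.11. Slc4a1, the red cell anion exchanger, was at 1.34, with 1.84 and 0.83 in the pairs, while its other probe sets gave 0.62 and 0.02.

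Across all genes the littermate pairs shared little. The differences of pair 1 and pair 2 correlated with r = 0.127 and rho = 0.075 over 8608 genes, which are not independent replicates, and 52.3% of genes had the same sign. The spread of the differences was wider in pair 1 (SD 0.723) than in pair 2 (SD 0.481). A difference of over 1 log2 unit occurred for 1184 genes (13.8%) in pair 1 and 354 (4.11%) in pair 2. In both pairs 45 genes were higher by over 1 (0.523%) and 31 lower (0.360%), while 34 (0.395%) were beyond 1 in opposite directions.

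**Figure D5:**
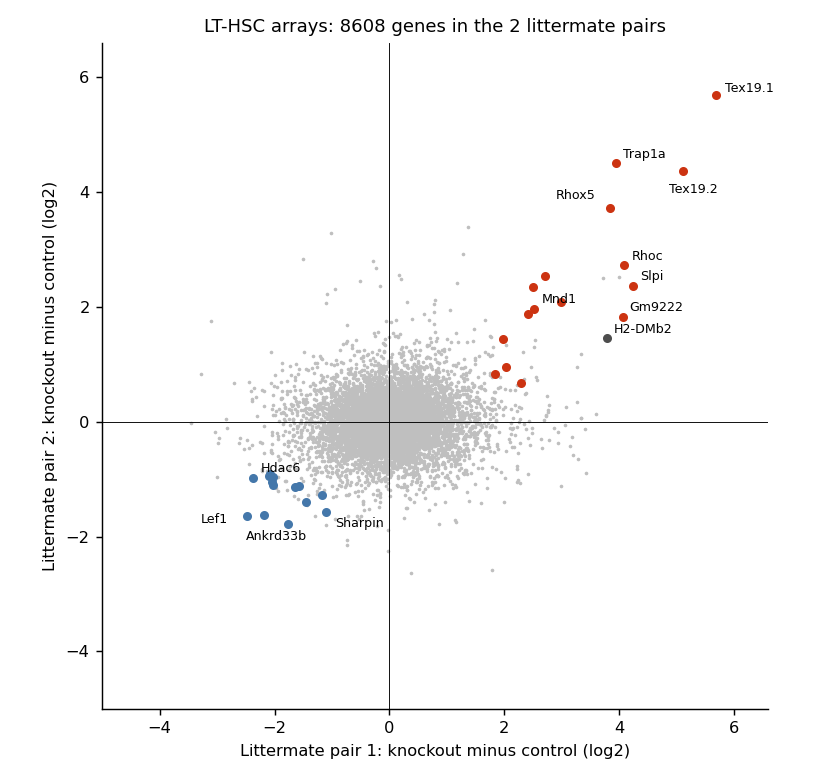
Knockout minus control (log2) of each of 8608 genes in littermate pair 1 (x axis) and pair 2 (y axis), with the genes past the threshold and the next 12 in red (higher) and blue (lower) and H2-DMb2 in dark grey. Most genes scatter around 0 with r = 0.127, and Tex19.1 stands apart at 5.69 and 5.68.

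Genes on the lower side besides Lef1 and Ankrd33b missed the threshold. Sharpin, a subunit of the linear ubiquitin ligase, stood at 591 and 846 units in control and 258 and 265 in knockout cells (-1.34 ± 0.25, adjusted p = 0.108). A second Sharpin probe set gave -0.22. Gde1, a glycerophosphodiesterase, stood at 253 and 244 units in control and 77.6 and 80.2 in knockout cells (-1.43 ± 0.27, adjusted p = 0.108), with replicates close together in both genotypes. Hdac6, a cytoplasmic deacetylase, stood at 150 and 99.5 units in control and 18.1 and 42.1 in knockout cells (-1.67). Tifa, an adaptor of innate immune signalling, was at -1.55, and the zinc finger gene Zbtb25 at -1.23. Rdh11, a retinol dehydrogenase, was at -1.50, but its other probe set was at 0.13. Blocked adjusted p was 0.0346 for Sharpin, 0.0454 for Gde1 and 0.0236 for 4632415L05Rik, a gene of unknown role at -1.78 whose other probe set gave -0.38.

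Stem cell regulators showed small differences. Of 28 transcription factors measured, 16 were above 0 and 12 below, with a median of 0.14, and by limma 0 passed the threshold while 2 were lower at an unadjusted p below 0.05 (7.14%, beside 3.15% of all genes). The median was -0.29 without control array 1. Runx1, a factor needed to form blood stem cells, stood at 708 and 721 units in control and 405 and 535 in knockout cells (-0.57), and Myb at 2084 and 2575 and at 1620 and 1923 (-0.31, an _x_ probe set). Both genes were lower in both pairs without overlap of the genotypes on these probe sets, which held for 12.1% of all genes. The other 4 Runx1 probe sets gave 0.47, -0.43, -0.66 and -0.77. Gata2 was at 0.48, Meis1 at -0.18, Hlf at 0.22 and Bmi1 at 0.07, each with a sign that differed between pairs. Other probe sets of Hlf and Bmi1 gave -0.49 and -0.65. Surface receptors of stem and progenitor cells had a median of 0.10 over 31 genes. Alcam, an adhesion molecule, stood at 4.13 and 26.2 units in control and 77.5 and 44.2 in knockout cells (1.42).

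Among stress programmes, the medians of the interferon and p53 lists changed sign with single arrays left out. Interferon response genes, which poly(I)poly(C) is known to induce, had a median of -0.06 over 53 genes, with 20 above 0 and 33 below, 1 higher (1.89%, beside 3.47% of all genes) and 0 lower at an unadjusted p below 0.05. That median was -0.72 and 0.50 without control array 1 or 2, and 0.44 and -0.49 without knockout array 1 or 2. p53 targets had a median of 0.14 over 27 genes, 2 higher and 2 lower (7.41% each way, beside 3.47% and 3.15%), and a median of -0.07 without knockout array 1. Aen, a nuclease of apoptosis, stood at 418 and 439 units in control and 813 and 685 in knockout cells (0.87), and its other probe sets gave 1.08 and 0.07. Phlda3, an inhibitor of Akt, stood at 30.5 and 40.4 units in control and 102 and 89.3 in knockout cells (1.16). Gadd45a, a growth arrest gene of the same list, was at -0.88. Heat shock and unfolded protein genes had a median of 0.21 over 28 genes, 21 above 0, with 3 higher (10.7%, beside 3.47% of all genes) and 0 lower at an unadjusted p below 0.05. That median lay between 0.098 and 0.302 over the alternatives. Sel1l and Sdf2l1, which act in the endoplasmic reticulum, were at 0.79 and 0.72, and other probe sets of Sel1l gave 0.65, -0.05 and -0.44.

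Housekeeping lists had medians close to that of all genes in the fit over both pairs. Oxidative phosphorylation genes had a median of 0.01 over 71 genes (-0.26 to 0.30 over the alternatives), ribosomal protein genes -0.01 over 43, cholesterol synthesis genes 0.02 over 19 and chromatin repressor genes -0.01 over 51. DNA repair genes had a median of -0.09 over 56 genes, with 3 higher and 3 lower at an unadjusted p below 0.05 (5.36% each way, beside 3.47% and 3.15% of all genes). Fancc, of the interstrand crosslink repair pathway, stood at 47.1 and 58.1 units in control and 4.51 and 26.8 in knockout cells (-1.25), and its other probe set gave 0.24. On the other side were Rad52 at 1.46 (2.75 and 0.17 in the pairs) and Rad51c at 0.74. Glycolysis and hypoxia genes had a median of 0.12 over 28, with 18 above 0 and 10 below. Bnip3, a mitophagy gene induced by hypoxia, stood at 99.3 and 129 units in control and 20.1 and 62.9 in knockout cells (-1.30). Car9, a carbonic anhydrase, was at -1.29 (-2.21 and -0.37 in the pairs), while Pfkl was at 0.67.

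Among genes of antigen presentation, H2-DMb2, which helps load MHC class II molecules, stood at 31.1 and 46.6 units in control and 592 and 155 in knockout cells (2.62 ± 0.68, adjusted p = 0.404). H2-Aa, a class II chain measured by an _x_ probe set, stood at 95.4 and 141 units in control and 322 and 258 in knockout cells (1.25), and its other probe set gave 0.49. In both genes the knockout arrays lay above both control arrays, as in 12.9% of all genes. The list of 13 had a median of 0.09, with 9 above 0. Mast cell, basophil and eosinophil markers had a median of 0.27 over 18 genes, monocyte markers 0.17 over 18, and megakaryocyte markers 0.07 over 13.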

How the data were processed

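Affymetrix arrays measured the RNA of 14 sorted samples, each on 1 array. The deposited value of each probe set is a linear intensity, between 0.73 and 19239. Per the labels' protocols, WT-Ovation Pico amplification and biotin labelling preceded hybridisation. The authors' background correction, summary and scaling of these intensities are steps not given in the sources used here.

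In all, the table holds 22690 probe sets, 64 of them controls. The platform annotation gave 1 symbol to 20380, several to 691 and none to 1555. Of these, 20351 matched a gene table of the mouse assembly GRCm38.p6 by Entrez identifier, which updated 0 symbols. Promoter windows come from RefSeq sequences of the same assembly.

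Values were taken as log2(intensity + 16) and quantile normalized over the 14 arrays, which understates changes of dim genes. Probe sets above the 40th percentile of an array on at least 2 arrays were kept, and a gene was represented by its probe set with the highest mean. limma 3.58.1 in R 4.3.3 fitted 6 group means to all 14 arrays. A mean-variance trend was used, and there were 8 residual and, at the median, 5.40 prior degrees of freedom. P-values are two-sided and Benjamini-Hochberg adjusted over 8608 genes, and "rose" and "fell" are used for genes with an adjusted p below 0.05. The spread of the CD34- groups is thus assumed to be that of all groups, and p-values describe pools of mice. On simulated data of the same size, 18% of genes changed by 1 log2 unit, 92% by 2 and 100% by 3 were recovered. The simulation changed 50 genes at each size of 1, 2, 3 and 4 log2 units and drew independent noise with 1 spread per gene over all groups. It also called 9 unchanged genes. With that many changed genes the adjustment is less strict than in a contrast where 6 genes passed. The simulated shares may be too high for the real arrays, where Trap1a at 4.22 and Rpl39l at 3.11 missed the threshold.

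Named genes were every Dnmt1 probe set, genes past the threshold, the 12 next in each direction with the same sign in both pairs, the 10 with the smallest interaction p, up to 4 per list and the cell type markers. Members of lists beyond these (such as Rag1, Dntt, Tbx21, Lat, Gzmb, Rpl39l and the Dnmt3 genes) were chosen after their values were seen. The comparison and the 34 gene lists were chosen with earlier results of these data known; 23 list members were matched through older symbols. Lists were described and not tested.

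Same-numbered control and knockout arrays came from littermates, per the labels. Their deviations from the group means correlated at r = 0.465 in the CD34- cells, and at 0.204 to 0.613 in the other populations. The fit without a block is reported, and the fit with 7 littermate pairs as blocks stands beside results it changes. In all, 16 alternatives were listed at the outset and 2, without both arrays of pair 1 or 2, were added after the data were seen. Python 3.11.15 with pandas 2.3.3, numpy 2.4.6 and matplotlib 3.10.9 prepared the tables and plots.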

Additional observations from a re-analysis of the deposited data

Results flagged for a closer look

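Probe sets that the platform annotation ties to no gene, or to several, were left out of the comparison of genes, and some of them carried signal that differed between genotypes. Of 15549 probe sets that passed the filter, 1351 had no single symbol, and 5 of these were higher (0.370%) and 1 lower (0.0740%) in knockout cells (limma, adjusted p below 0.05 over all probe sets). Of all 15549, those included, 9 were higher (0.0579%) and 3 lower (0.0193%). Probe set 1456182_x_at stood at 7.57 and 7.20 units on the control arrays and at 917 and 560 on the knockout arrays, a difference of 5.04. Probe set 1433438_x_at stood at 6.77 and 2.64 units in control and 702 and 372 in knockout cells (4.74), and probe set 1456456_x_at at 9.69 and 10.2 and at 710 and 397 (4.47). Probe set 1436362_x_at already had signal in control cells, at 262 and 367 units, and stood at 3885 and 1802 in knockout cells (3.14). These 4 carry the _x_ suffix, which marks probes that can bind several transcripts, and what they measure is not named here.

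Probe set 1448715_x_at, annotated to Sgip1, Cog6 and Noct together, stood at 1117 and 1427 units in control and 4804 and 3445 in knockout cells, a difference of 1.73; the Noct probe set in the comparison of genes was at 2.15. Probe set 1449878_a_at was lower, at 368 and 258 units in control and 70.4 and 89.4 in knockout cells (-1.73). In all 6 the genotypes did not overlap, which adds nothing, since the same contrast chose them.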

How the results depend on the processing

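The count of 6 genes (4 higher, 2 lower) was 6 without further normalization, with median centring, without the filter, with the filter on 2 CD34- arrays and without the mean-variance trend, and the 6 genes were the same ones each time. A pseudocount of 1 gave 6 higher and 0 lower, of which 4 were among the 6, and a pseudocount of 64 gave 2 higher and 2 lower, with Tex19.2 and Rhox5 at an adjusted p of 0.0507. A filter on 4 arrays gave 3 higher and 0 lower, since Rhoc, Lef1 and Ankrd33b were then not tested. Leaving out 1 array gave 2 to 77 genes, 2 to 46 higher and 0 to 31 lower, and 0 to 5 interaction genes. The pairs added after the data were seen gave 0 genes, 0 higher and 0 lower, without pair 1, and 120, 66 higher and 54 lower, with 30 interaction genes, without pair 2.

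With the littermate pairs as blocks, 20 genes passed, 13 higher and 7 lower, all 6 among them; no call was lost. The CD34- arrays alone gave 1 gene, Tex19.1, and with the pairs as blocks 12 higher and 0 lower, which makes 12.

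Of 1519 values of single genes under the alternatives, 1429 kept their direction and side of the threshold, 26 lost and 60 gained it, and 4 changed sign, all without pair 1: Fadd to -0.27, Bcl2l1 to 0.0915, Pcgf2 to -0.43 and H1f2 to 0.0204. Of 34 list medians, 23 changed sign under at least 1 alternative. That of the stem cell factor list turned from 0.14 to -0.11 when probe sets of a gene were averaged, -0.29 without control array 1 and -0.19 without pair 1. With 2 arrays per genotype a change of 1 log2 unit was mostly below what the test could call.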
